A study of Mus musculus with 12 samples.

Results

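Bone marrow-derived macrophages (BMMs), the osteoclast precursors of mouse bone marrow, were profiled by RNA-seq, and 7 transcripts were followed: Tnf, Il10, Il18, Il1rn and Tgfb1, which encode secreted proteins, and Tnfrsf1a and Tnfrsf1b, which encode the receptors of TNF-α. They were chosen by name, with earlier results of these data known, so their values beside those of all genes are a description and not a test. They are 7 of 24421 listed genes, and all 7 passed the filter on low values in both experiments. The loss of function experiment compared Mir182ΔM/ΔM BMMs, in which Cre driven by the lysozyme M promoter (LysMcre) deletes floxed Mir182 in myeloid cells, with WT littermates that also carry LysMcre and have intact Mir182. BMMs grown with M-CSF for 3 days were left without RANKL (basal) or received RANKL for 5 days. The gain of function experiment compared Mir182mTg BMMs, in which LysMcre switches on a Mir182 transgene in the Rosa26 locus, with Control BMMs of LysMcre littermates, both without RANKL. All mice were described as C57BL/6. Each of the 6 conditions had 2 replicates, 12 libraries in all, with 24951280 to 33050619 reads on genes. Levels are given as CPM, the reads of a gene per 1000000 reads on genes, in replicates 1 and 2 in that order, and differences as log2 fold changes of CPM + 1 ± SE unless stated otherwise. The number of replicates was 2 for every condition. A p-value thus measures the spread between replicates pooled over the conditions of a fit, which may be partly technical. Unless the replicate number is fitted as a block, that spread includes a shift shared by same-numbered libraries.

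TNF-α is an inflammatory cytokine that macrophages release and to which they respond. Its receptor TNFR1, encoded by Tnfrsf1a, carries a death domain and signals to NF-κB and cell death pathways, whereas TNFR2, encoded by Tnfrsf1b, recruits TRAF adaptors directly. IL-10 restrains macrophage activation, IL-18 is a cytokine of the IL-1 family matured by caspase-1, the IL-1 receptor antagonist encoded by Il1rn blocks IL-1 at its receptor, and TGF-β1 is secreted in a latent form. TNF-α acts with RANKL on osteoclast precursors, and bone matrix is a store of TGF-β1.

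The identity of the libraries was checked first. Defining macrophage genes were present in every library, and the summed level of 10 osteoclast genes was 122.6 to 181.9 CPM in the basal libraries, 10640 to 10860 in WT RANKL and 3253 to 3285 in Mir182ΔM/ΔM RANKL. Mmp9 made the largest part of the sum, with means of 4932 CPM in WT RANKL and 1836 CPM in Mir182ΔM/ΔM RANKL. The osteoclast genes did not all follow the sum. Itgb3 was higher in Mir182ΔM/ΔM RANKL than in WT RANKL (means of 83.1 and 59.0 CPM), Calcr was level (9.37 and 9.39 CPM), and the others were lower. Lower levels of a transcript in bulk RNA can come from fewer cells of a type or from less RNA per cell, which cannot be told apart. The summed neutrophil markers (8 of 8 listed) were at 49.6 to 117.5 CPM in the basal libraries, 21.9 to 22.2 in WT RANKL and 7.19 to 7.36 in Mir182ΔM/ΔM RANKL. The endothelial markers (5 of 5 listed) summed to 4.74 to 9.44, 24.5 to 26.5 and 107.9 to 109.3 CPM, of which Kdr alone made 24.9 CPM in WT RANKL and 101.1 CPM in Mir182ΔM/ΔM RANKL. In WT, Cdh5 was at 0.819 CPM before and 0.300 after RANKL, Pecam1 at 0.883 and 0.264 CPM and Emcn at 0.0506 and 0.0380 CPM. In Mir182ΔM/ΔM Cdh5 and Pecam1 went the other way, from 1.73 to 3.78 and from 1.04 to 1.98 CPM, and Emcn went from 0.260 to 1.64 CPM. Emcn in WT was below the value of 3 reads (0.0908 to 0.120 CPM), so no direction is read from it there. Kdr rose with RANKL in both genotypes, as did Tek, which was below the value of 3 reads on average in each condition. Pf4, a megakaryocyte marker, had means of 193.0 to 323.2 CPM in the basal conditions, 36.0 CPM in WT RANKL and 42.1 CPM in Mir182ΔM/ΔM RANKL. The part of these markers in the results was not tested. The Mir182 row reached 2.39 and 4.40 CPM in Mir182mTg and at most 1 read in the other libraries, so it shows the transgene but does not check the deletion. The WT RANKL libraries were unlike the rest of the loss of function experiment in some genes. Lyz2, the lysozyme gene into which LysMcre is inserted, was at 4117 and 4288 CPM in WT RANKL, 22.5 to 44.0 CPM in the other 6 loss of function libraries and 5783 to 7062 CPM in Control and Mir182mTg. Ifi202b, an interferon-inducible gene, was at 1.12 and 0.972 CPM in WT RANKL, 82.1 to 152 CPM in the other 6 and at most 0.0908 CPM in Control and Mir182mTg. On both genes WT RANKL was thus nearer to Control than to WT basal. For the 7 transcripts, responses in WT and differences of response are therefore also given with Control basal as the baseline, a comparison chosen after the data were seen, and for other genes it is given where named. The part of this library difference in the results was not tested beyond that.

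**Figure D1:**
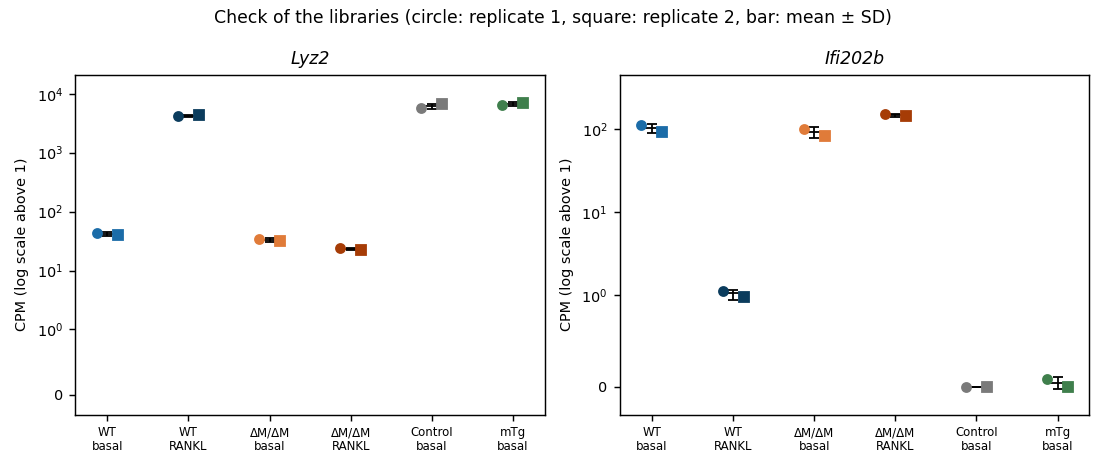
CPM of Lyz2 and Ifi202b in each of the 12 libraries by condition, on an axis that is logarithmic above 1 CPM; circles are replicate 1, squares replicate 2, and bars the mean ± SD. WT RANKL lies with Control and Mir182mTg for Lyz2, at 4117 and 4288 CPM, and close to them for Ifi202b, at 1.12 and 0.972 CPM.

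miR-182 pairs with messenger RNAs through its seed, bases 2 to 8, so the 3′ UTRs of the 7 genes were searched for the reverse complement of the seed. The mature sequence, from RefSeq (GRCm38.p6, chr6:30165962-30165986, minus strand), is shown with the seed in capitals.
mmu-miR-182-5p: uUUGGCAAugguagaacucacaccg
Of the 7 genes, 2 held the match TTGCCAA in an annotated 3′ UTR, Il18 and Tnfrsf1b, against 11.5% of 19503 listed genes with a 3′ UTR. Among genes tested in the loss of function experiment, the share was 12.9% of 10900 with a 3′ UTR. The stretches of Il18 and Tnfrsf1b are printed on the strand of the gene with the match in capitals.
Il18: ctttcttgcTTGCCAAaaggaagat
Tnfrsf1b: ccagctcttTTGCCAAaggattcat
The Il18 stretch lies at chr9:50581603-50581627, plus strand, in exon 6, the last exon of that transcript, and only 1 of the 4 annotated transcripts with a 3′ UTR contains it. The Tnfrsf1b stretch lies at chr4:145214848-145214872, minus strand, in exon 10, also the last. With the shorter match TGCCAA to bases 2 to 7, Tnfrsf1a was added (chr6:125362225-125362248, plus strand, exon 10), against 31.7% of listed genes and 35.5% of those tested.
Tnfrsf1a: agctgagggTGCCAAagacaggat
The 3′ UTRs of Tnf, Il10, Il1rn and Tgfb1 held neither match. A match is a description of the sequence and no evidence of binding.

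Levels of different genes were compared per length, in RPKM, which exists for replicate 1 only. Tgfb1 had the highest level of the 7 transcripts in each condition, at 138.7 to 162.4 RPKM. Tnfrsf1a followed at 77.3 to 108.0 RPKM in 5 conditions and was below Il1rn only in Mir182ΔM/ΔM RANKL, where Il1rn reached 94.9 and Tnfrsf1a 89.9 RPKM. Tnfrsf1b was at 54.0 to 78.7 RPKM. Il18 was at 10.3 to 27.3, Tnf at 4.73 to 35.3 and Il1rn at 3.99 to 94.9 RPKM. Il10 had the lowest level in each condition, at 1.13 to 3.31 RPKM, from 37 to 141 reads per library.

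**Figure D2:**
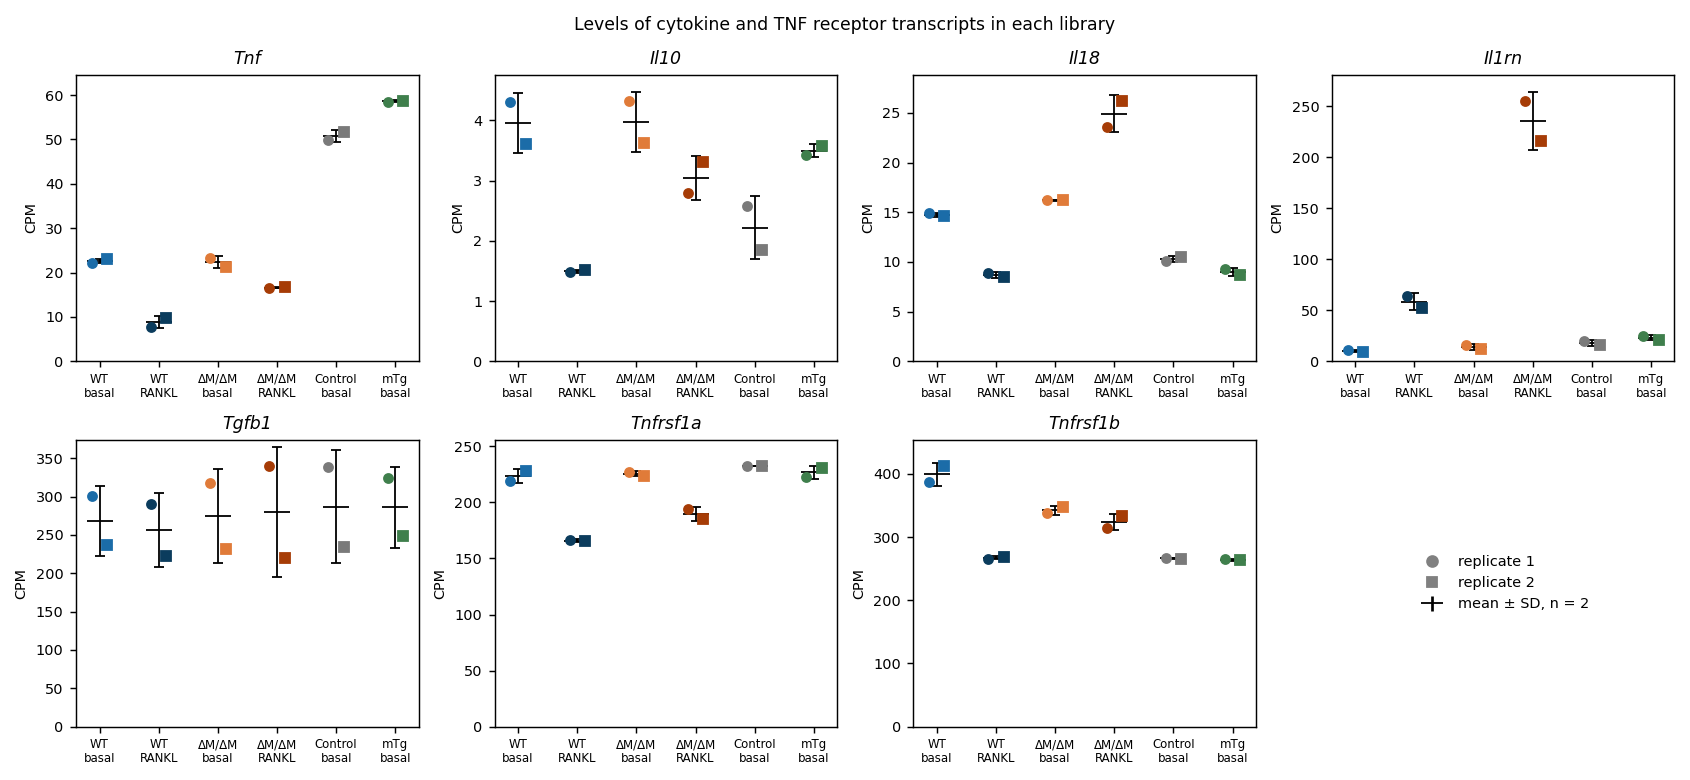
CPM of the 7 transcripts in each library by condition, with circles for replicate 1, squares for replicate 2 and bars for the mean ± SD of 2 replicates. Il1rn is highest in Mir182ΔM/ΔM RANKL at 255 and 215 CPM, Tnf is highest in Control and Mir182mTg, and Tgfb1 is higher in replicate 1 than in replicate 2 of each condition.

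RANKL lowered 5 of the 7 transcripts in WT BMMs and raised 1, Il1rn. In Mir182ΔM/ΔM BMMs it lowered Tnf and Tnfrsf1a and raised Il1rn and Il18. Over all genes tested with limma, RANKL raised 40.6% and lowered 22% in WT, and raised 30.4% and lowered 26.4% in Mir182ΔM/ΔM. The median log2 change of the 7 transcripts in WT was -0.58 against 0.19 for all genes, and in Mir182ΔM/ΔM it was -0.08 against 0.05. The median of all genes in WT depended on scaling. With TMM factors it was -0.01, and 28.6% of genes were raised and 30.5% lowered. Against Control basal, WT RANKL had 4 of the 7 transcripts lower (Tnf, Il10, Il18 and Tnfrsf1a) and 1 higher (Il1rn), with 29.6% of genes higher and 23.1% lower in a fit of all 12 libraries. With the replicate number as a block, the response in Mir182ΔM/ΔM was called higher for 42.7% and lower for 36.3% of genes, and 4 transcripts were then lowered, Il10 and Tnfrsf1b being added.

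After RANKL, 6 of the 7 transcripts were higher in Mir182ΔM/ΔM than in WT BMMs and none was lower; Tgfb1 was the exception. Over all genes, 14.3% were higher and 30.9% lower, and the median log2 difference was 0.70 for the 7 transcripts against -0.14 for all genes. The difference of the RANKL responses, Mir182ΔM/ΔM minus WT, was positive past the threshold for 5 of the 7 (Tnf, Il10, Il18, Il1rn and Tnfrsf1b), where 7.44% of all genes were called positive and 17.1% negative. Both comparisons shifted with scaling: with TMM factors the medians of all genes were -0.01 and 0.00, the calls split into 20.6% higher and 20.5% lower genes after RANKL, and into 10.5% positive and 11% negative differences of response. Under the replicate block, Tgfb1 joined the transcripts higher after RANKL, at a background of 23.4% higher and 49.7% lower. Tnfrsf1a joined the positive differences of response under the block, at a background of 16.1% and 42.8%. With Control basal in place of WT basal, 4 of the 7 had a positive difference of response (Tnf, Il18, Il1rn and Tnfrsf1a), at a background of 21.5% positive and 25.8% negative. Il10 and Tnfrsf1b thus lost their call. No other unstimulated or stimulated group can replace WT RANKL itself in these comparisons, so its library difference and the genotype cannot be told apart there.

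Without RANKL, none of the 7 transcripts differed between Mir182ΔM/ΔM and WT in limma, while 2.71% of all genes were higher and 1.1% lower. At an unadjusted p under 0.05 there were 2, Il1rn and Tnfrsf1b, and edgeR and DESeq2 on the recovered reads each called 0. The replicate block called the same 2, Il1rn higher and Tnfrsf1b lower, at a background of 18.6% and 12.7%. Between Mir182mTg and Control, edgeR called 0 of the 7, with 0.0993% of all genes higher and 0.157% lower. One transcript, Il10, had an unadjusted p under 0.05, and DESeq2 and limma each called 0. The block called 3 higher, Tnf, Il10 and Il1rn, at a background of 6.94% higher and 8.15% lower.

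**Figure D3:**
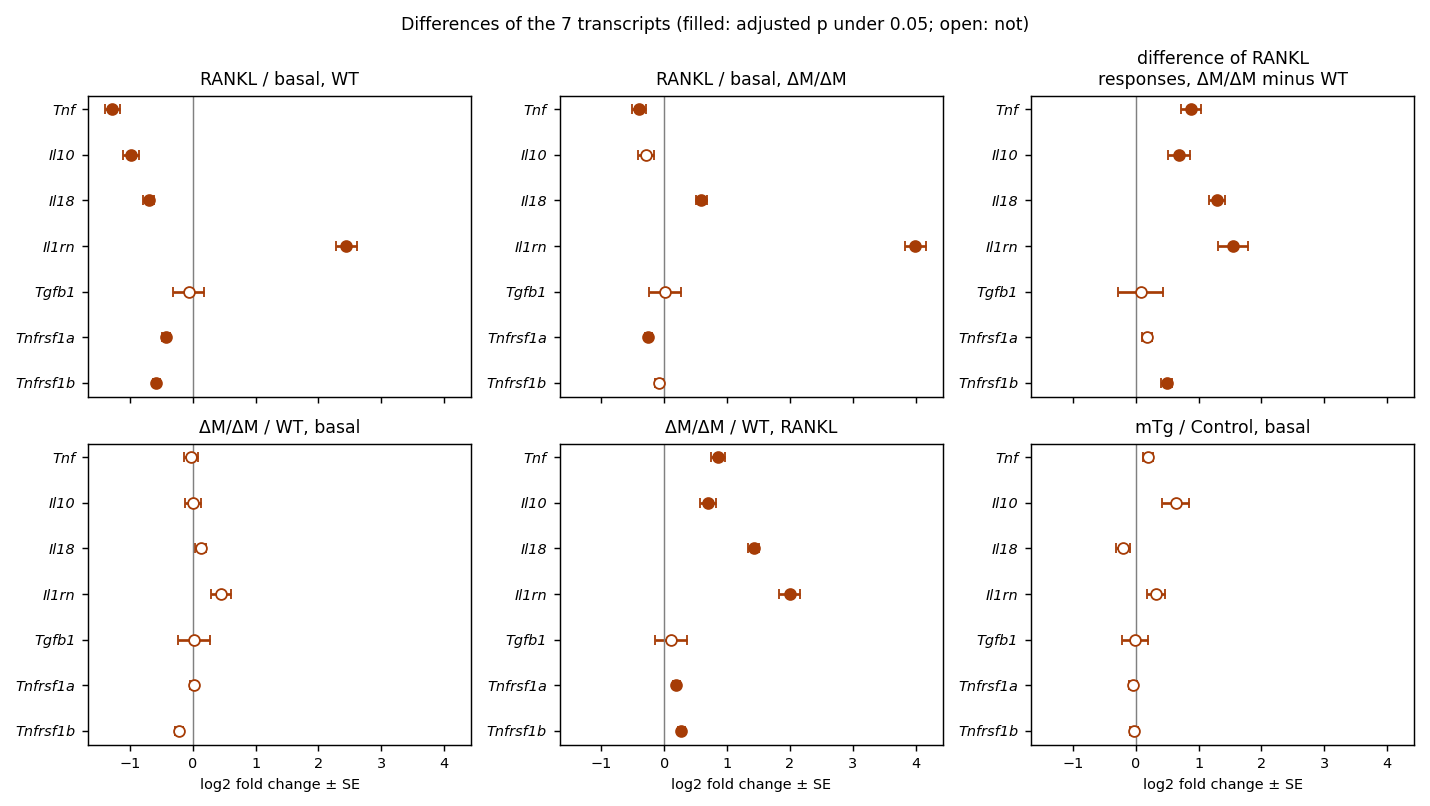
Log2 fold change ± SE of the 7 transcripts in 6 comparisons (limma on log2(CPM + 1), edgeR for Mir182mTg against Control); filled points have an adjusted p under 0.05. Il18 lies left of 0 for RANKL in WT, at -0.70, and right of 0 in Mir182ΔM/ΔM, at 0.59.

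Tnf was at 22.3 and 23.0 CPM in WT basal and 23.2 and 21.3 CPM in Mir182ΔM/ΔM basal, and these replicates overlapped. After RANKL it was at 7.82 and 9.75 CPM in WT and 16.5 and 16.7 CPM in Mir182ΔM/ΔM, below both basal groups and without overlap. Tnf fell by 1.28 ± 0.11 on the log2 scale in WT (limma, adjusted p = 5.75e-05), a level 2.57-fold lower. In Mir182ΔM/ΔM it fell by 0.40 ± 0.11 (adjusted p = 0.0184), and this call was lost without Mir182ΔM/ΔM basal replicate 1 (adjusted p = 0.10), RANKL replicate 1 (0.0735) or RANKL replicate 2 (0.0660). The responses differed by 0.88 ± 0.16 (adjusted p = 0.00700). In Control Tnf was at 49.8 and 51.8 CPM and in Mir182mTg at 58.4 and 58.8 CPM, the highest levels of the series. Control exceeded WT basal by 1.13 ± 0.10 (adjusted p = 1.33e-05), although both are unstimulated BMMs with intact Mir182, in a comparison where 32.4% of all genes were higher and 19.5% lower. Against Control, WT RANKL was lower by -2.41 ± 0.10 (adjusted p = 5.48e-08), and the difference of responses was 2.01 ± 0.13. Mir182mTg was above Control in both replicates by 0.20 ± 0.08 (edgeR, adjusted p = 0.700, and 0.00540 with the block). The order of the 6 conditions was Mir182mTg, Control, WT basal, Mir182ΔM/ΔM basal, Mir182ΔM/ΔM RANKL and WT RANKL, and only WT basal and Mir182ΔM/ΔM basal overlapped as neighbours.

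Il10 was a low transcript in each condition. It was at 4.31 and 3.61 CPM in WT basal, 4.33 and 3.62 CPM in Mir182ΔM/ΔM basal, 2.59 and 1.85 CPM in Control and 3.42 and 3.58 CPM in Mir182mTg. After RANKL it was at 1.48 and 1.51 CPM in WT and 2.79 and 3.31 CPM in Mir182ΔM/ΔM, so only the basal groups of WT and Mir182ΔM/ΔM overlapped as neighbours. Il10 fell by 0.99 ± 0.13 in WT (limma, adjusted p = 0.000390), a level 2.65-fold lower. At such low levels the added 1 CPM makes log2 differences smaller: with a pseudocount of 0.1 the change was -1.34. Scaling moved it too, to -1.13 with TMM factors in limma. In edgeR and DESeq2, which differ from the main fit in both respects, it was -1.62 and -1.60. In edgeR the difference after RANKL was 1.18 against 0.70 in limma, and that of responses 1.19. The change in Mir182ΔM/ΔM was -0.30 ± 0.13 (adjusted p = 0.0808, and 0.0342 with the block). The difference of responses, 0.69 ± 0.18 (adjusted p = 0.0292), lost its call in several fits. It had an adjusted p of 0.0506 without a filter on low values. Its adjusted p was 0.0909 without WT basal replicate 1, 0.0857 and 0.0785 without WT RANKL replicate 1 or 2, 0.0964 without Mir182ΔM/ΔM basal replicate 2 and 0.0931 without Mir182ΔM/ΔM RANKL replicate 2. Control was below WT basal by -0.63 ± 0.13 (adjusted p = 0.00378), so WT RANKL was only -0.36 ± 0.13 below Control (adjusted p = 0.0497), and with Control as baseline the difference of responses was 0.06 ± 0.19 (adjusted p = 0.810). In edgeR, Mir182mTg was above Control by 0.64 ± 0.21 (adjusted p = 0.568, and 0.0256 with the block).

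Il18 was called for RANKL in both genotypes, with opposite signs. It was at 14.9 and 14.6 CPM in WT basal and 8.90 and 8.46 CPM in WT RANKL, against 16.2 and 16.2 CPM in Mir182ΔM/ΔM basal and 23.6 and 26.2 CPM in Mir182ΔM/ΔM RANKL. It fell by 0.70 ± 0.09 in WT (limma, adjusted p = 0.000335) and rose by 0.59 ± 0.09 in Mir182ΔM/ΔM (adjusted p = 0.000983). The responses differed by 1.29 ± 0.12 (adjusted p = 0.000432), and after RANKL the level in Mir182ΔM/ΔM was 2.87-fold that in WT (log2 1.42 ± 0.09, adjusted p = 2.39e-05). Control was at 10.1 and 10.5 CPM and Mir182mTg at 9.29 and 8.66 CPM, both below WT basal. Against Control, WT RANKL was lower by only -0.22 ± 0.08 (adjusted p = 0.0441) (against -0.70 from WT basal), and the difference of responses remained at 0.81 ± 0.11 (adjusted p = 0.000374). Il18 holds the longer seed match shown above. Without RANKL, its log2 difference was 0.13 ± 0.09 with the deletion (adjusted p = 0.581) and -0.20 ± 0.11 with the transgene (edgeR, adjusted p = 0.919). Mir182mTg and WT RANKL were the only neighbours in the order of levels whose replicates overlapped. Il18 (chr9:50554827-50581840, GRCm38) overlaps Bco2 and Tex12 on the opposite strand, and the counting was not stated to use strand. Bco2 was at 10.6 and 11.2 CPM in Mir182ΔM/ΔM RANKL, also its highest level, and 1.29 to 5.77 CPM elsewhere. Reads of Il18 and Bco2 therefore cannot be told apart with certainty.

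Il1rn had the largest change of the 7 transcripts. It was at 10.7 and 9.02 CPM in WT basal and 64.3 and 52.3 CPM in WT RANKL, and at 15.7 and 12.1 CPM in Mir182ΔM/ΔM basal and 255 and 215 CPM in Mir182ΔM/ΔM RANKL. RANKL thus raised this IL-1 antagonist 5.90-fold in WT (log2 2.44 ± 0.16, limma, adjusted p = 1.55e-05) and 16.9-fold in Mir182ΔM/ΔM (log2 3.99 ± 0.16, adjusted p = 2.02e-06). The difference of responses was 1.55 ± 0.23 (adjusted p = 0.00318), and after RANKL the level was 4.04-fold higher in Mir182ΔM/ΔM (log2 2.0 ± 0.16, adjusted p = 9.29e-05). At baseline Mir182ΔM/ΔM was above WT in both replicates, by 0.45 ± 0.16 (adjusted p = 0.235, and 1.63e-06 with the block). Control was at 20.3 and 16.2 CPM and Mir182mTg at 24.6 and 21.2 CPM. Against Control, WT RANKL was higher by 1.62 ± 0.17 (adjusted p = 3.85e-05), and the difference of responses was 2.37 ± 0.24. Mir182mTg was above Control by 0.32 ± 0.15 (edgeR, adjusted p = 0.814, and 0.00321 with the block). No neighbours in the order of levels overlapped, and replicate 1 exceeded replicate 2 in each of the 6 conditions, with ratios of replicate 2 to replicate 1 of 0.769 to 0.859.

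Tgfb1 showed no difference past the threshold without the replicate block. It was at 300.2 and 236 CPM in WT basal, 290.5 and 223 CPM in WT RANKL, 318 and 231 CPM in Mir182ΔM/ΔM basal, 340.0 and 220.5 CPM in Mir182ΔM/ΔM RANKL, 339 and 235 CPM in Control and 324 and 249 CPM in Mir182mTg. Replicate 1 was higher in all 6 conditions, and each condition overlapped its neighbours in the order of means. The log2 change with RANKL was -0.07 ± 0.25 in WT and 0.01 ± 0.25 in Mir182ΔM/ΔM, whose sign turned with TMM factors, to -0.03. After RANKL Mir182ΔM/ΔM exceeded WT by 0.11 ± 0.25 (limma, adjusted p = 0.759). The block brought this to an SE of 0.04 and an adjusted p of 0.0394, but within replicates the fold was 1.17 in replicate 1 and 0.99 in replicate 2. Relative to the median of all genes, the change with RANKL in WT was -0.25 and the difference after RANKL 0.25. WT RANKL differed from Control by -0.15 ± 0.27 (adjusted p = 0.679, and 0.00441 with the block).

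Tnfrsf1a, the gene of TNFR1, was at 219 and 228 CPM in WT basal, 227 and 224 CPM in Mir182ΔM/ΔM basal, 233 and 232 CPM in Control and 223 and 231 CPM in Mir182mTg. These 4 unstimulated conditions lay within 219 to 233 CPM, and Control and WT basal did not differ past the threshold (log2 0.06 ± 0.05, limma, adjusted p = 0.363). RANKL brought the level to 167 and 165 CPM in WT and 194 and 185 CPM in Mir182ΔM/ΔM, below all unstimulated libraries. It fell by 0.43 ± 0.06 in WT (adjusted p = 0.000514) and by 0.25 ± 0.06 in Mir182ΔM/ΔM (adjusted p = 0.00784, and 0.0507 without Mir182ΔM/ΔM basal replicate 1). Of the TNF receptors, it was the one whose fall in WT did not depend on the baseline, with -0.48 ± 0.05 against Control (adjusted p = 3.10e-05). After RANKL Mir182ΔM/ΔM was higher by 0.19 ± 0.06 (adjusted p = 0.0317). This call was lost without either replicate of WT RANKL, Mir182ΔM/ΔM basal or Mir182ΔM/ΔM RANKL (adjusted p = 0.0603 to 0.146) and when only the 4 RANKL libraries were fitted (0.0970). With TMM factors the difference was 0.34, and in edgeR the change with RANKL in WT was -0.64. The difference of responses was 0.18 ± 0.08 (adjusted p = 0.167), and it passed with the block (0.00362), with TMM factors (0.0242) and with Control as baseline (0.0213).

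Tnfrsf1b, the gene of TNFR2, was at 387 and 413 CPM in WT basal and 266 and 269 CPM in WT RANKL, against 338 and 348 CPM in Mir182ΔM/ΔM basal and 315 and 333 CPM in Mir182ΔM/ΔM RANKL. It fell by 0.58 ± 0.06 in WT (limma, adjusted p = 0.000166), and the change in Mir182ΔM/ΔM was -0.08 ± 0.06 (adjusted p = 0.288, and 0.0155 with the block). Control at 267 and 266 CPM and Mir182mTg at 265 and 263 CPM were at the level of WT RANKL, not of WT basal. Control was below WT basal by -0.58 ± 0.05 (adjusted p = 2.00e-05), and WT RANKL differed from Control by 0.00 ± 0.05 (adjusted p = 0.948). The fall with RANKL in WT was thus seen only against WT basal. The difference of responses was 0.49 ± 0.09 (adjusted p = 0.00660) with WT basal and -0.09 ± 0.07 (adjusted p = 0.358) with Control as baseline. After RANKL Mir182ΔM/ΔM exceeded WT by 0.27 ± 0.06 (adjusted p = 0.0103, but 0.0557 without WT RANKL replicate 1 and 0.0626 without Mir182ΔM/ΔM RANKL replicate 2), and by 0.42 with TMM factors. At baseline it was lower than WT by -0.22 ± 0.06 (adjusted p = 0.125, and 7.71e-06 with the block). Tnfrsf1b also holds the longer seed match, and with the transgene its log2 difference was -0.02 ± 0.06 (edgeR, adjusted p = 1.0).

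The receptors and partners of the secreted proteins were examined next. Il10ra and Il10rb, the chains of the IL-10 receptor, both fell with RANKL. Il10rb fell from 369 ± 8.54 to 217 ± 4.40 CPM (SD) in WT and from 356 ± 4.41 to 225 ± 12.2 CPM in Mir182ΔM/ΔM (limma, adjusted p = 3.92e-05 and 9.82e-05), and was at 329 ± 19.4 CPM in Control. Il10ra fell by 0.76 ± 0.14 in WT and 0.62 ± 0.14 in Mir182ΔM/ΔM (adjusted p = 0.00217 and 0.00673), but WT RANKL and Control were level at 80.2 ± 5.60 and 80.3 ± 9.51 CPM. Il18bp, which encodes the secreted inhibitor that binds IL-18, moved in the directions of Il18: it fell from 8.49 ± 0.24 to 4.24 ± 0.04 CPM in WT and rose from 9.57 ± 0.18 to 15.7 ± 0.18 CPM in Mir182ΔM/ΔM. The difference of its responses was 1.52 ± 0.12 (adjusted p = 0.000200). Control was at 4.19 ± 0.53 CPM, at the level of WT RANKL, and against it the difference was 0.64 ± 0.13 (adjusted p = 0.00372).

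Il18rap, the accessory chain of the IL-18 receptor, was below 5 CPM throughout. Its log2(CPM + 1) fell by 0.98 ± 0.10 with RANKL in WT, where the level went from 1.72 to 0.381 CPM, and rose by 0.31 ± 0.10 in Mir182ΔM/ΔM (limma, adjusted p = 0.000163 and 0.0388), and the difference of responses was 1.29 ± 0.15 with WT basal and 1.84 ± 0.15 with Control as baseline. Il18r1, the ligand-binding chain, had at most 0.0303 CPM on average in any condition, below the value of 3 reads. Il1r1 and Il1r2, the signaling and decoy receptors of IL-1, reached means of at most 1.1 and 0.211 CPM and were not tested. Il1rap, their shared accessory chain, was at 23.1 to 27.8 CPM on average. Its change with RANKL was 0.04 ± 0.13 in WT and 0.17 ± 0.13 in Mir182ΔM/ΔM (limma, adjusted p = 0.818 and 0.300, the latter 0.0199 with the block).

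Adam17, the protease that sheds TNF-α and both TNF receptors from the cell surface, rose with RANKL in Mir182ΔM/ΔM, from 334 ± 4.84 to 576 ± 11.9 CPM (log2 0.78 ± 0.05, limma, adjusted p = 2.21e-05). In WT it was at 365 ± 7.93 CPM before and 399 ± 2.47 CPM after RANKL (0.13 ± 0.05, adjusted p = 0.0747, and 0.000480 with the block), and at 382 ± 9.19 CPM in Control. The responses differed by 0.65 ± 0.08 (adjusted p = 0.00110), and by 0.72 ± 0.07 with Control as baseline. Tgfbr1, the type I receptor of TGF-β, rose in WT from 125.0 ± 6.41 to 284 ± 6.13 CPM and was at 123 ± 5.97 and 125 ± 2.04 CPM in Mir182ΔM/ΔM. Control and Mir182mTg, however, were at 256 ± 12 and 257 ± 0.98 CPM without RANKL, and WT RANKL did not differ from Control past the threshold (0.15 ± 0.06, adjusted p = 0.0595). Tgfbr2, the type II receptor, fell from 438 ± 5.94 to 181 ± 1.48 CPM in WT and from 374 ± 10.8 to 132 ± 0.50 CPM in Mir182ΔM/ΔM, while Control was at 160 ± 4.31 CPM, so in WT its fall too was seen only against WT basal, and WT RANKL exceeded Control by 0.18 ± 0.05 (adjusted p = 0.0120).

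**Figure D4:**
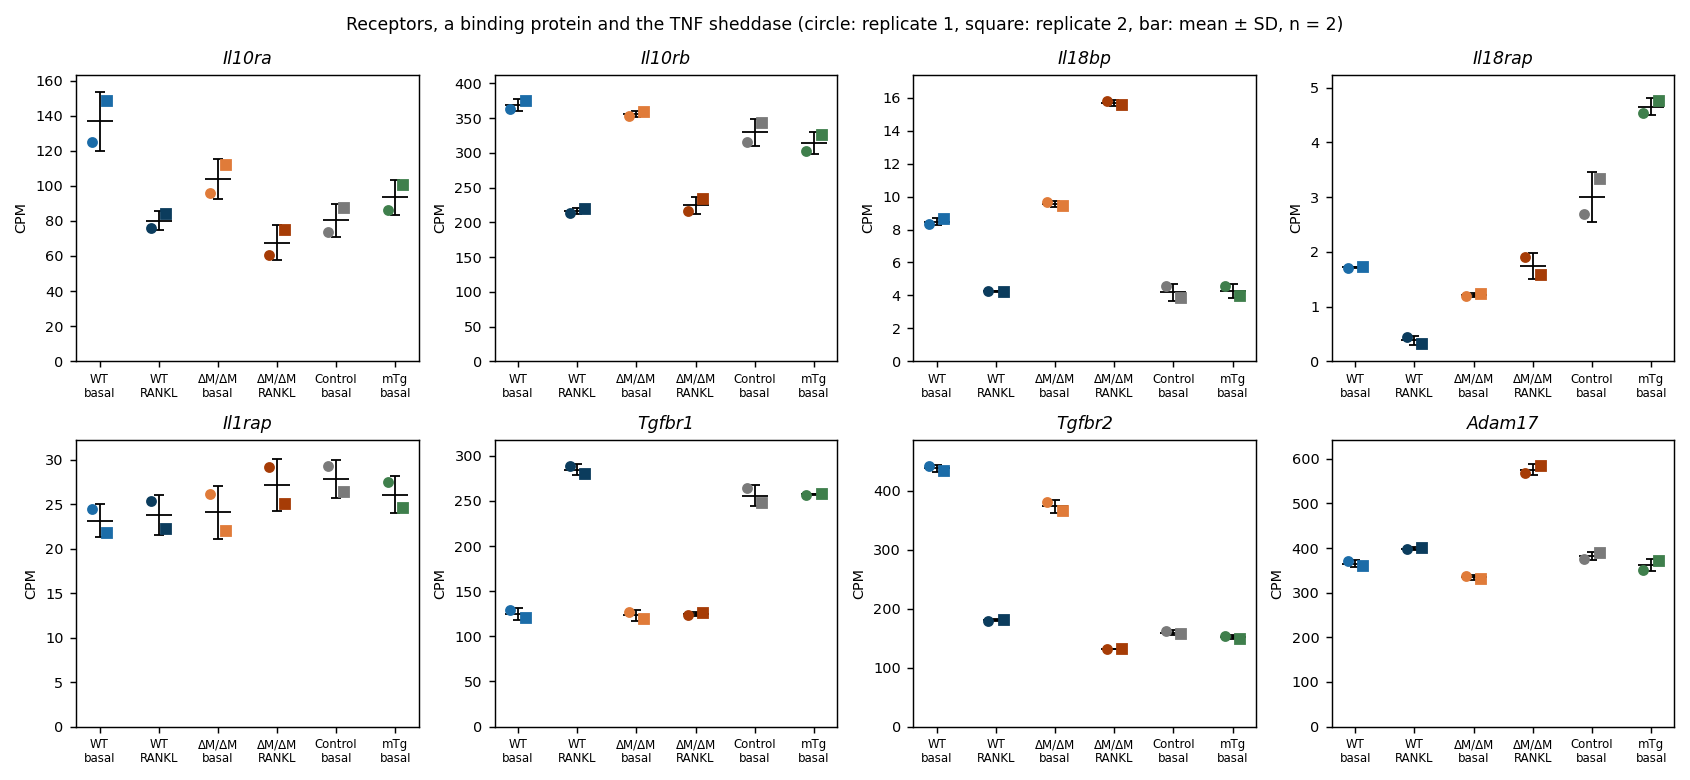
CPM of the IL-10 receptor chains, Il18bp, Il18rap, Il1rap, the TGF-β receptors and Adam17 in each library by condition, drawn as circles (replicate 1), squares (replicate 2) and bars (mean ± SD of 2 replicates). Adam17 is highest in Mir182ΔM/ΔM RANKL, at 576 CPM on average, and Tgfbr1 is above 240 CPM in WT RANKL, Control and Mir182mTg only.

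Of 139 genes on 7 lists of TNF, IL-10, IL-1, IL-18, TGF-β and other cytokine pathways, 109 were tested in the loss of function experiment. RANKL raised 40 and lowered 35 of them in WT and raised 39 and lowered 34 in Mir182ΔM/ΔM, and after RANKL 22 were higher and 40 lower in Mir182ΔM/ΔM. Without RANKL 2 were higher and 3 lower (8 and 22 with the block). Between Mir182mTg and Control, edgeR called 0 of 107, 9 had an unadjusted p under 0.05, DESeq2 and limma called 0, and the block called 16 higher and 7 lower. These counts and those of the lists below are to be read against the shares over all genes. RANKL raised 40.6% and lowered 22% in WT, and raised 30.4% and lowered 26.4% in Mir182ΔM/ΔM. After RANKL 14.3% were higher and 30.9% lower in Mir182ΔM/ΔM, and the difference of responses was positive for 7.44% and negative for 17.1%. WT RANKL had 29.6% higher and 23.1% lower against Control. The shares of the other comparisons and of the block are given above.

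Of 28 TNF receptor signaling genes, RANKL left 15 higher and 2 lower in WT (15 and 1 against Control), and 11 higher and 2 lower in Mir182ΔM/ΔM. The median change of the list in WT was 0.33 against 0.19 for all genes. Traf1, an adaptor recruited by TNFR2, rose from 3.75 ± 0.27 to 242 ± 17.5 CPM (SD) in WT and from 3.12 ± 0.19 to 268 ± 20.3 CPM in Mir182ΔM/ΔM (limma, adjusted p = 7.43e-08 and 1.58e-07), and was at 4.16 CPM in Control. Birc3, an inhibitor of apoptosis in the TNFR1 complex, rose from 50.1 ± 0.93 to 289 ± 1.30 CPM and from 34.9 ± 0.19 to 238 ± 2.84 CPM, and was at 30.9 CPM in Control. Ripk1, the kinase that TNFR1 recruits, fell by 0.37 in WT and 0.39 in Mir182ΔM/ΔM (adjusted p = 0.0162 and 0.0139), but in WT it was level with Control (-0.02 ± 0.11, adjusted p = 0.881). After RANKL 3 of the 28 were higher and 9 lower in Mir182ΔM/ΔM (4 and 17 with the block). Among the lower ones, Tnfaip3, which encodes the NF-κB inhibitor A20, was at 46.8 ± 2.14 CPM against 93.2 ± 2.38 CPM in WT (adjusted p = 6.55e-05). Traf5, another TRAF adaptor, was at 8.67 ± 1.76 against 27.1 ± 1.04 CPM. Traf3, a negative regulator of noncanonical NF-κB signaling, was among the higher ones, at 182.2 against 137.8 CPM. With RANKL, the difference of responses was positive for 1 and negative for 4 of the 28 (6 and 13 with the block, 3 and 5 with Control as baseline). At baseline Birc3 and Nfkbia, the gene of the NF-κB inhibitor IκBα, were lower in Mir182ΔM/ΔM by -0.51 and -0.45 (adjusted p = 0.00501 and 0.0347).

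Of 13 genes of TNF production and shedding, RANKL raised 4 and lowered 4 in WT (6 and 4 against Control), and raised 4 and lowered 3 in Mir182ΔM/ΔM (8 and 4 with the block). Litaf, named for LPS-induced TNF, fell from 429 ± 2.19 to 184 ± 5.63 CPM in WT and from 389 ± 17.2 to 101.0 ± 1.30 CPM in Mir182ΔM/ΔM (limma, adjusted p = 3.24e-06 and 6.28e-07), and was at 223 CPM in Control. Zfp36, whose product tristetraprolin destabilizes Tnf mRNA, fell from 104 ± 14.1 to 68.4 ± 6.2 CPM in WT (adjusted p = 0.00881, and 0.00688 against Control) and was at 120 ± 18.1 CPM in Mir182ΔM/ΔM RANKL. It was higher there than in WT RANKL by 0.80 ± 0.14 (adjusted p = 0.00375). A link of this difference to the level of Tnf was not tested. After RANKL 2 of the 13 were higher and 3 lower in Mir182ΔM/ΔM (3 and 6 with the block). Of 10 other TNF superfamily genes tested, 3 rose and 5 fell with RANKL in each genotype, with the same counts for WT against Control. Tnfsf10, the gene of TRAIL, was higher in Mir182ΔM/ΔM both at baseline (6.13 ± 1.12 against 1.92 ± 0.12 CPM, adjusted p = 0.00353) and after RANKL (14.4 ± 1.18 against 1.40 ± 0.06 CPM, adjusted p = 9.48e-06), and Control was at 1.16 CPM. Tnfsf12, the gene of TWEAK, fell by 1.69 in WT (-1.04 against Control) and 1.58 in Mir182ΔM/ΔM.

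Of 12 IL-10 receptor signaling genes, RANKL raised 4 and lowered 6 in WT (4 and 3 against Control) and raised 5 and lowered 6 in Mir182ΔM/ΔM. Hmox1, the heme oxygenase induced by IL-10, fell from 1353 ± 51.6 to 208 ± 2.47 CPM in WT and from 1347 ± 18.0 to 234 ± 5.54 CPM in Mir182ΔM/ΔM (limma, adjusted p = 1.29e-07 and 2.35e-07), and was at 951.8 CPM in Control. Bcl3, a nuclear IκB protein, rose from 21.1 ± 5.19 to 103 ± 17.5 CPM and from 18.4 ± 3.44 to 76.3 ± 18.7 CPM, with 19.5 CPM in Control. After RANKL 5 of the 12 were lower in Mir182ΔM/ΔM (2 higher and 9 lower with the block), among them Sbno2 at 277 ± 21.6 against 470.4 ± 57.0 CPM. With WT basal the difference of responses was negative for 1 of the 12, and for 8 with Control as baseline. Of 13 IL-1 and IL-18 genes tested, 5 rose and 4 fell in each genotype (also 5 and 4 for WT against Control), and after RANKL 4 were higher and 6 lower in Mir182ΔM/ΔM. Casp1, the protease that matures IL-18, was higher there at 116 against 91.3 CPM (0.34 ± 0.07, adjusted p = 0.00565). Among the lower ones, Sigirr was at 2.71 ± 0.34 against 8.52 ± 2.56 CPM and Irak4 at 28.8 ± 2.84 against 49.5 ± 5.67 CPM. Of 25 TGF-β genes, RANKL raised 6 and lowered 10 in WT (6 and 12 against Control) and raised 8 and lowered 11 in Mir182ΔM/ΔM. Ltbp2, of the latent TGF-β binding protein family, rose from 0.33 to 13 ± 0.63 CPM in WT and from 0.33 to 38.4 ± 0.14 CPM in Mir182ΔM/ΔM, with a difference of responses of 1.49 ± 0.12 (adjusted p = 0.000260) that was 2.66 ± 0.13 with Control as baseline. The difference of responses was called for 10 of the 25 TGF-β genes, 6 positive and 4 negative (8 and 13 with the block, 8 and 8 with Control as baseline). Of 8 other cytokine genes, 3 rose and 4 fell with RANKL in WT (5 and 2 of 9 against Control). Lif rose with RANKL in WT to 5.81 ± 0.42 CPM (log2 2.64 against WT basal, 2.65 against Control) and was lower in Mir182ΔM/ΔM RANKL, at 1.71 ± 0.19 CPM (adjusted p = 0.000146). Il16 fell by 1.45 in WT and 1.56 in Mir182ΔM/ΔM, but in WT it was above Control after RANKL, at 20.8 against 11.8 CPM. Csf1, the gene of M-CSF, was at 10.4 ± 1.43 CPM in Mir182ΔM/ΔM RANKL and 2.50 ± 0.53 CPM in WT RANKL (adjusted p = 0.000106), but Control without RANKL was also at 2.28 CPM, below WT basal at 5.29 CPM.

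**Figure D5:**
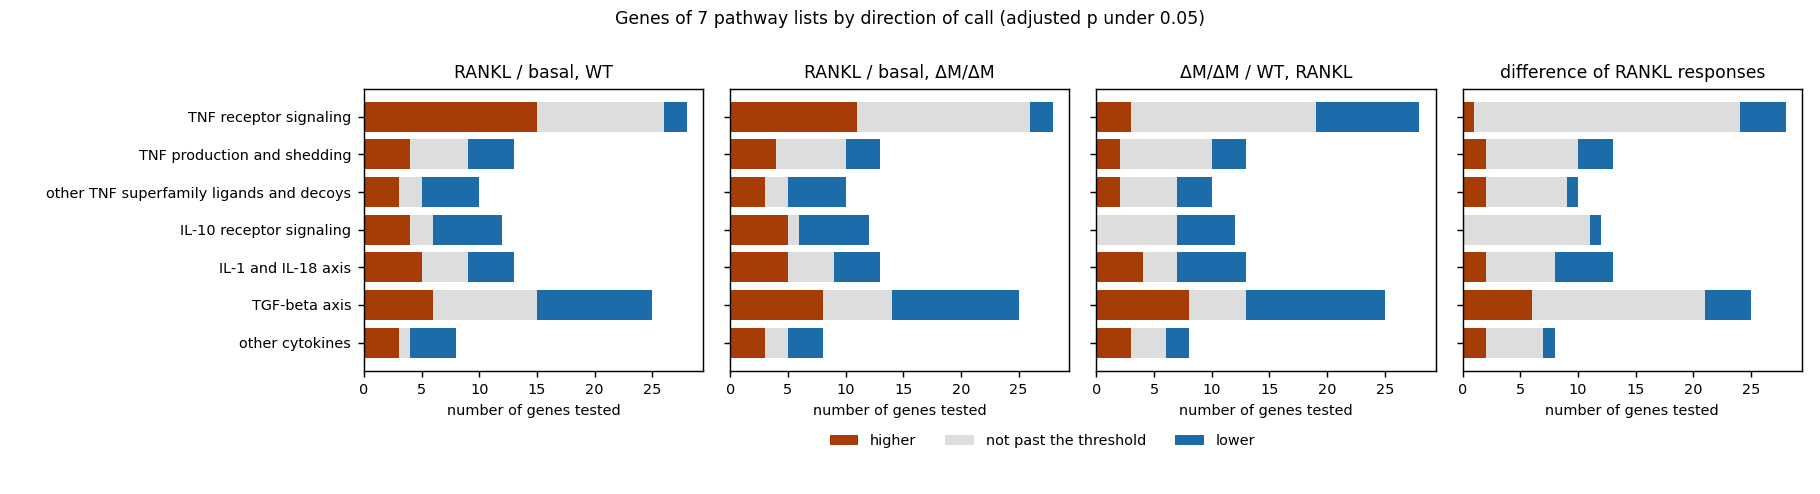
Number of tested genes of 7 pathway lists that were higher, lower or not past the threshold (limma, adjusted p under 0.05) in 4 comparisons. TNF receptor signaling has 15 higher and 2 lower genes for RANKL in WT, and 3 higher and 9 lower genes for Mir182ΔM/ΔM against WT after RANKL.

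The genes with the most similar pattern over the 12 libraries were found by Pearson's r of log2(CPM + 1) among 9807 genes with a mean of at least 5 CPM. They are given as a description, since libraries of a condition share its effects and libraries of a replicate number share a batch. For Tnf they were Lrpap1 (r = 0.992), Stk10 and Slc15a3. Il18 was most like Il18bp (0.982), Ms4a6c and Sdc3, and Il1rn most like Smg9 (0.989), D17H6S56E-5 and Slc25a28. For Tnfrsf1a they were Tlr13 (0.988), Arl4c and Milr1, for Tnfrsf1b Rhoq (0.983), Rab6b and Cyth3, and for Il10 Arrdc3 (0.919), Evl and Xdh. Tgfb1 was most like Smarcc2 (0.973), Fkbp2 and Atn1, and over the 6 condition means those values were 0.883, 0.768 and 0.273. Among the 7 transcripts, Tnf and Tnfrsf1a were the pair with the highest r, 0.847.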

How the data were processed

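The authors sequenced poly-A+ RNA, aligned reads to mm10 (GRCm38) with TopHat or HISAT2 and counted them per gene with HT-seq. GEO's processing notes name TopHat and Cufflinks for replicate 1 and HISAT2, HTSeq and edgeR for replicate 2, and the labels name the molecule as polyA RNA in replicate 1 but total RNA in replicate 2. For the 8 loss of function libraries the authors deposited CPM, each value a whole multiple of 1 read (100% of values, tolerance 0.02 reads). For the 4 gain of function libraries they deposited a raw count per gene, and for replicate 1 of all 6 conditions they also deposited RPKM, calculated with 1 fixed length per gene. The counts were scaled to CPM for levels. Of 24421 listed names 27 had been turned into dates. The value of 3 reads is 0.0908 to 0.120 CPM.

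The loss of function CPM were tested with limma (3.58.1, eBayes with trend) on log2(CPM + 1) of the 11691 genes that reached 1 CPM in 2 or more libraries, in 1 fit of 4 groups, and the counts with edgeR (4.0.16, TMM, quasi-likelihood) on 12081 genes. The standard error of an edgeR change is its size divided by the square root of F. Comparisons with Control used limma on all 12 libraries (11794 genes). The Benjamini-Hochberg method gave the adjusted p, with a threshold of 0.05. The scripts were tested on simulated data. Alternatives were other filters, another pseudocount (0.1), other scalings, edgeR and DESeq2 (1.42.0) on the recovered reads, other sets of libraries, each library left out, and the replicate number as a block. Same-numbered libraries deviated together: over genes, the log2 ratios of replicate 2 to replicate 1 correlated with r of 0.686 to 0.754 for the 15 pairs of conditions, so replicate numbers, which come from the labels, mark batches that each hold all 6 conditions. Rn45s, a ribosomal RNA gene, was at 742 to 1176 CPM in the replicate 1 libraries and 9778 to 21273 CPM in the replicate 2 libraries. The part of this difference in the results was not tested.

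Genes named are the 7 transcripts, their receptors, the genes most like each, and per pathway list up to 2 per direction with the largest change that reach 5 CPM and move alike in both replicates. The 7 transcripts and all lists were chosen with earlier results of these data known. Pathway genes named under a comparison follow that rule, and Control values beside them were added after seeing the data. Positions are from GENCODE vM21 and count from 1. The 3′ UTRs are those of its protein-coding transcripts.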

Additional observations from a re-analysis of the deposited data

Results flagged for a closer look

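The responses to RANKL of 5 transcripts differed between Mir182ΔM/ΔM and WT BMMs by limma's test of the difference, with log2 differences of 0.88 for Tnf, 0.69 for Il10, 1.29 for Il18, 1.55 for Il1rn and 0.49 for Tnfrsf1b. All rest on the WT RANKL libraries. With Control basal in place of WT basal the values were 2.01, 0.06, 0.81, 2.37 and -0.09. The part of the library difference in them was not tested further.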

How the results depend on the processing

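Of the counts of transcripts called, 6 moved, that is by over 1.5 times or to or from 0. Leaving out 1 library in turn gave 2 to 4 calls for RANKL in Mir182ΔM/ΔM, with 2 without Mir182ΔM/ΔM basal replicate 1. The replicate block gave 2 calls for Mir182ΔM/ΔM against WT at baseline, in limma and in edgeR, and 3 for Mir182mTg against Control. The fit of all 12 libraries gave 1 call at baseline (Tnfrsf1b), and limma on all 12 libraries with the block, added after seeing the data, gave 2 for Mir182mTg. Beside the calls named in the report the replicate block changed no other call of the 7 transcripts in their 6 main comparisons. Of the values of single transcripts under an alternative, 686 kept direction and side of the threshold, 20 lost the call, 25 gained it and 39 turned sign. In edgeR with the block, Tgfb1 was also called for RANKL in WT (-0.27), after RANKL (0.27) and for the difference of responses (0.26).

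Except for Tnfrsf1b with Control as baseline, the signs that turned belonged to differences that had not passed the threshold. Tgfb1 turned for RANKL in Mir182ΔM/ΔM with TMM (-0.031), quantile normalization (-0.049) and edgeR without and with the block (-0.0097 and -0.017), and for Mir182mTg with limma, on 4 or all 12 libraries, without or with the block (0.0081), and with the upper quartile (0.0060). At baseline, Mir182ΔM/ΔM against WT, Il10 turned with TMM (-0.0080), quantile normalization (-0.027), edgeR (-0.016), edgeR with the block (-0.018) and DESeq2 (-0.019), and Tnfrsf1a with the same settings (-0.00095, -0.0031, -0.0018, -0.00045 and -0.0067). Tnfrsf1b turned with Control as baseline, to 0.0049 without and with the block for RANKL in WT and to -0.088 for the difference of responses. With 1 library left out, Tgfb1 ranged from -0.26 to 0.12 for RANKL in WT, -0.30 to 0.33 in Mir182ΔM/ΔM, -0.20 to 0.25 between genotypes at baseline, -0.21 to 0.42 after RANKL, -0.23 to 0.39 for the difference of responses and -0.25 to 0.27 for Mir182mTg. At baseline Il10 ranged from -0.099 to 0.11, Tnf from -0.082 to 0.038 and Tnfrsf1a from -0.015 to 0.044. The causes were not tested. With 2 replicates a condition, differences within the replicate spread could not be detected, and Il10 rests on at most 141 reads a library.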
